A study of Mus musculus with 6 samples.

Results

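The enzymes that assemble triglycerides were followed in livers of mice with chronic hyperlipidemia. The list held 10 genes, from the glycerol phosphate acyltransferase Gpam to the diacylglycerol acyltransferases Dgat1 and Dgat2, chosen by gene symbol in the annotation of the array features. Of these, 9 had a feature among the 17347 genes named on the arrays. Gpam had none in the annotation used and is not analysed here. On the oligonucleotide array 9 of the genes were measured, by 10 of 18658 features that name a single gene. On the cDNA array 3 of them were measured, by 3 of 7410 such features, namely Agpat1, Agpat3 and Dgat1.

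The treated mice were 12 female C57BL/6 mice on a low-fat chow with 4.4% fat, 7 weeks old at the start, injected into the abdomen every 3 days with 0.5 g/kg poloxamer P-407, a block copolymer surfactant known to cause high blood lipids. The control mice were 4 females of the same strain, age and diet, injected with saline on the same schedule. Livers of both groups were collected at day 96. The 12 treated livers were represented by 3 RNA pools and the 4 control livers by 1, so no value belongs to a single animal. Each treated pool (Cy5) was hybridised against the control pool (Cy3) on 1 oligonucleotide and 1 cDNA array, 6 arrays in all, with no exchange of dyes.

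Triglycerides are built stepwise on glycerol phosphate. A glycerol phosphate acyltransferase adds the first fatty acid, and a lysophosphatidate acyltransferase of the Agpat family adds the second, which gives phosphatidate. A phosphatidate phosphatase of the lipin family then removes the phosphate, and a diacylglycerol acyltransferase attaches the last fatty acid. Monoacylglycerol acyltransferases such as Mogat1 make diacylglycerol by a separate route. In hepatocytes the product is stored in lipid droplets or packed with apolipoprotein B into very low density lipoproteins.

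Dgat2, Lpin1 and Lpin2, which act in the last steps of the pathway, had the lowest ratios of the 9 enzymes on the oligonucleotide array. Dgat2 was 1.70-fold, Lpin1 1.64-fold and Lpin2 1.41-fold lower than in the control pool on the oligonucleotide array, while the other lipin, Lpin3, and the acyltransferase Agpat1 lay near a ratio of 1. Agpat3 and Dgat1 passed the test with ratios of 1.11-fold and 1.14-fold lower. All values are log ratios made by the authors, treated over control, and were taken to be log2. Values of 0 counted as missing and each array was centred on its median, so a negative value is read as less RNA in the treated livers. Each gene was tested with limma across the 3 pools against a log2 ratio of 0, with Benjamini-Hochberg adjustment over all 16871 genes measured on the oligonucleotide array and a threshold of 0.05. Of the 9 enzymes, 5 were lower and 0 higher, with a median log2 ratio of -0.15. Among all genes 21.4% were called lower and 22% higher, with a median of 0.00275. Below 0 in all 3 pools were 6 of the 9 enzymes and 34.1% of all genes, and above 0 in all 3 pools were 1 of the enzymes and 35.1% of all genes. The count of 5 therefore stands beside a background in which 43.4% of genes were called. Without any single pool 3 enzymes were lower, and without pool 1 the genes called in all were 4025, against 7318. With 1 control pool the test leaves out the spread between control animals. Treated pools always carried Cy5 and the control pool Cy3, on both array types. A dye effect that repeats from array to array would therefore enter the ratios together with the treatment, and the test against 0 does not separate them. Since the ratios come from bulk liver, fewer cells of a type and less RNA per cell cannot be told apart.

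**Figure D1:**
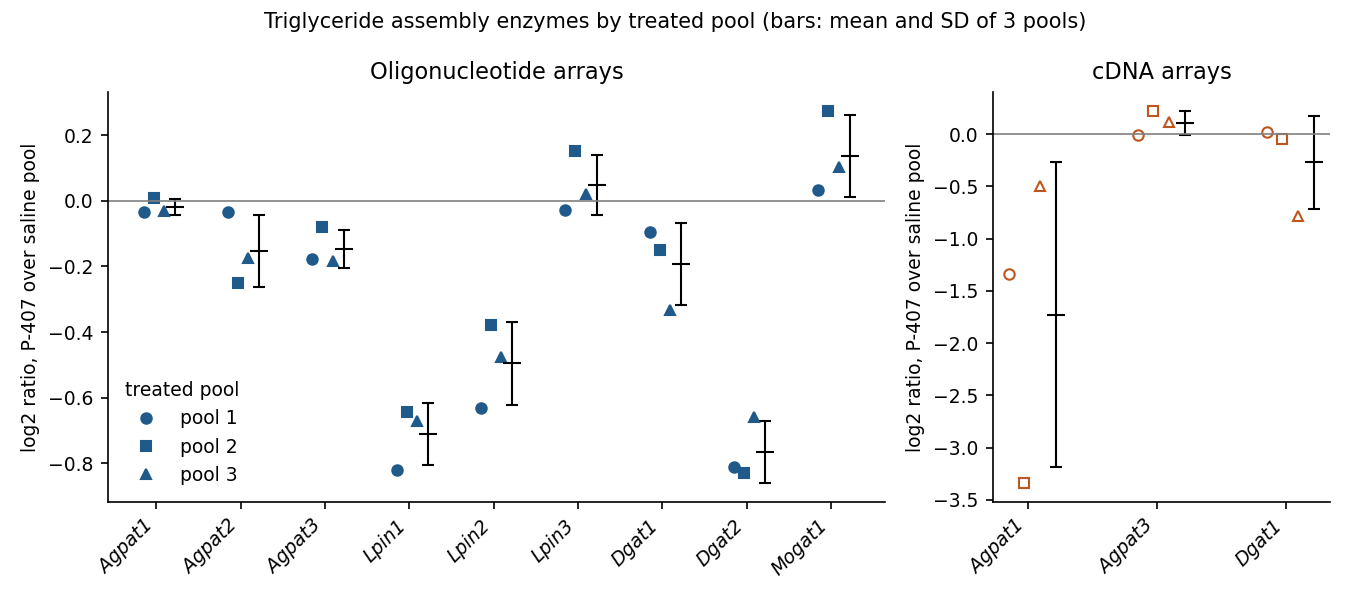
Log2 ratio of treated over control for each enzyme. Points are the 3 treated pools, and the bars beside them show their mean and SD, on oligonucleotide arrays at left and on cDNA arrays at right with a different vertical scale. Dgat2, Lpin1 and Lpin2 lie below 0 in every pool of the oligonucleotide arrays, and Agpat1 spans -3.34 to -0.50 on the cDNA arrays.

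Agpat1, Agpat2 and Agpat3, acyltransferases that make phosphatidate, changed little on the oligonucleotide array. Agpat1, which adds the second fatty acid to lysophosphatidate in many tissues, had log2 ratios of -0.04, 0.01 and -0.03 in pools 1, 2 and 3. These lay on either side of 0 and Agpat1 did not pass the test (-0.02 ± 0.02, SD, n = 3 pools, limma adjusted p = 0.716, 95% interval -0.12 to 0.08). Agpat2, whose human counterpart is mutated in a congenital lipodystrophy, had -0.03, -0.25 and -0.17. All 3 pools were below 0, and the mean of -0.15 ± 0.11 missed the threshold (limma adjusted p = 0.0627, 95% interval -0.28 to -0.02). Agpat3, which also acylates other lysophospholipids, had -0.18, -0.08 and -0.18. It was lower at -0.15 ± 0.06 (limma adjusted p = 0.0394), and was not past the threshold when any pool was left out (limma adjusted p = 0.195, 0.0549 and 0.116 without pools 1, 2 and 3).

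Lipins convert phosphatidate to diacylglycerol, and in mouse liver lipin-1 also acts in the nucleus as a coactivator of transcription factors that control fatty acid oxidation. Lpin1 had log2 ratios of -0.82, -0.64 and -0.67 in pools 1, 2 and 3. The pools lay close together and far from 0, and the gene fell by 0.71 ± 0.09 (limma adjusted p = 5.72e-04, 95% interval -0.83 to -0.59). Lpin2, another lipin of the liver, had -0.63, -0.38 and -0.48 when its features were averaged, and fell by 0.50 ± 0.13 (limma adjusted p = 0.0020). The Lpin2 mean rests on 2 features. The feature annotated to a RefSeq transcript had -0.58, -0.29 and -0.59, and the feature annotated to a cDNA clone had -0.68, -0.47 and -0.36. Their means of -0.49 and -0.50 nearly coincided, while they ordered pools 2 and 3 differently, and both passed the test on single features (limma adjusted p = 0.0037 and 0.0032, with 21.3% of 18640 features lower). Lpin3, which catalyses the same step, had -0.03, 0.15 and 0.02, and did not pass the test (0.05 ± 0.09, limma adjusted p = 0.462, 95% interval -0.07 to 0.17).

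The lipins thus spread over a range within the same arrays. The log2 ratio of Lpin1 lay below that of Lpin3 by 0.79, 0.80 and 0.69 in pools 1, 2 and 3, and that of Lpin2 by 0.60, 0.53 and 0.50. Lpin1 and Lpin2 differed by less, with Lpin1 lower by 0.19, 0.26 and 0.19. These pairs were chosen after the values were seen and are described without a test. An exact sign-flip permutation test over 3 pools could not give a two-sided p below 0.25.

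Since Lpin1 and Lpin2 fell together and are the enzymes with the largest decreases that have a promoter window in the RefSeq table, those windows are shown, from 250 bases before to 50 bases after an annotated start, on assembly GRCm38.p6. The Lpin1 window is the only one the table gives for that gene, at chr12:16610917-16611216 on the minus strand. The Lpin2 window is the first of 3, at chr17:71183282-71183581 on the plus strand. Capitals mark an E-box (CACGTG) or a GC box (GGGCGG, either strand). A CCAAT box (CCAAT, either strand) was searched as well.
Lpin1: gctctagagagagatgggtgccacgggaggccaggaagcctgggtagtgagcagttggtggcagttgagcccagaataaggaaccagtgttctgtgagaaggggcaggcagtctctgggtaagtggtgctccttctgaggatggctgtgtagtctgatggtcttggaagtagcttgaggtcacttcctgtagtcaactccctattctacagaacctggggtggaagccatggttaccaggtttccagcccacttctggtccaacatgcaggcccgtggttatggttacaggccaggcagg
Lpin2: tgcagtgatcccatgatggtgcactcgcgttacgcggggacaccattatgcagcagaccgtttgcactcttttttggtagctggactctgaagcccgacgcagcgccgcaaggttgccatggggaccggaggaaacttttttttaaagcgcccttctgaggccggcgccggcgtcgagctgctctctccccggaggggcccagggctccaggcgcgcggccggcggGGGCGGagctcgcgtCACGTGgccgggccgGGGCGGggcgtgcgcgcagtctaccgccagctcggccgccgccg
The Lpin2 window held an E-box whose first base lies 9 bases before the start, and GC boxes beginning 24 bases before and 6 bases after it. The Lpin1 window held none of these letters. The E-box was in 7.15% of all 32851 windows in that table, with 35.7% for the GC box and 37.4% for the CCAAT box. Among all enzymes 8 of 10 had a window, 13 windows in all, of which 2 held the E-box (Lpin2 and Lpin3), 7 the GC box and 4 the CCAAT box. Dgat1 and Dgat2 had no window. A match of letters describes the sequence only.

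Dgat1 and Dgat2 catalyse the same final reaction but belong to unrelated protein families. Dgat2, which in liver mainly uses newly made fatty acids, had log2 ratios of -0.81, -0.83 and -0.66 in pools 1, 2 and 3. It had the lowest mean of the 9 enzymes measured on the oligonucleotide array, with a fall by 0.77 ± 0.09 (limma adjusted p = 5.08e-04, 95% interval -0.89 to -0.64). Dgat1, which handles mainly fatty acids taken up from outside, had -0.09, -0.15 and -0.33. It was lower at -0.19 ± 0.12 (limma adjusted p = 0.0388), but not past the threshold without pool 1, 2 or 3 (limma adjusted p = 0.0639, 0.0909 and 0.114), and its mean was -0.12 without pool 3. Within each pool the ratio of Dgat2 lay below that of Dgat1, by 0.72, 0.68 and 0.32 on the log2 scale (mean -0.57 ± 0.22), again described without a test.

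Mogat1, the monoacylglycerol acyltransferase, was the enzyme with the highest mean. Its log2 ratios were 0.03, 0.27 and 0.10 in pools 1, 2 and 3, all above 0. The mean of 0.14 ± 0.12 did not pass the test (limma adjusted p = 0.102, 95% interval -0.00405 to 0.28). In order of their means the enzymes ran from Dgat2 through Lpin1, Lpin2, Dgat1, Agpat2, Agpat3, Agpat1 and Lpin3 to Mogat1. The pools of Dgat2 and Lpin1 overlapped. The pools of Lpin1 and Lpin2 did not overlap, and neither did those of Lpin2 and Dgat1, with gaps that were small beside the spread of the pools. The pools of Dgat1, Agpat2 and Agpat3 overlapped, those of Agpat3 and Agpat1 did not, and those of Agpat1, Lpin3 and Mogat1 overlapped from neighbour to neighbour.

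The sizes of these changes can be set beside all genes on the same arrays. A ratio at or below that of Dgat2, the gene itself included, was found for 97 of 16871 genes (0.575%), at or below that of Lpin1 for 125 (0.741%) and at or below that of Lpin2 for 392 (2.32%). For Dgat1 that share was 17.1%, for Agpat2 21.6% and for Agpat3 22.6%. In all, 1.23% of all genes were called and at least 1.5-fold lower, and Dgat2 and Lpin1 were among them. As a gauge of ratios in genes that liver is not known to use, 862 genes of odorant, vomeronasal and trace amine receptors were measured. Of these, 311 were called (36.1%), and 216 of the 862 were called lower, where 21.4% of all genes were called lower. A ratio as low as that of Dgat2 was found in 1 of them, as low as Lpin1 in 2, as low as Lpin2 in 16, as low as Dgat1 in 184 and as low as Agpat3 in 233.

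**Figure D2:**
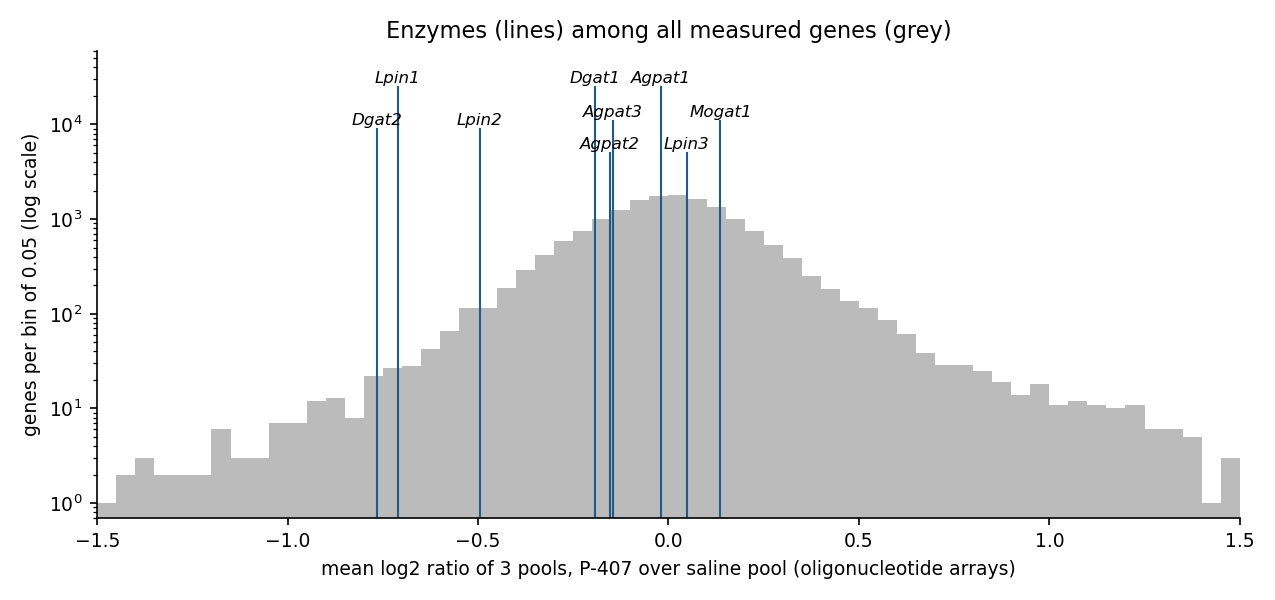
Mean log2 ratio of treated over control on the oligonucleotide arrays. Grey bars count all measured genes in bins of 0.05 on a log scale, shown between -1.5 and 1.5, and lines mark the 9 enzymes. Dgat2 and Lpin1 lie in the lower tail, and Agpat1, Lpin3 and Mogat1 lie within the main body of genes.

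When the test asked for a change larger than 1.2-fold, with limma's treat, Dgat2 (adjusted p = 0.0026) and Lpin1 (adjusted p = 0.0039) were still lower. Lpin2 was not past the threshold (adjusted p = 0.0607). By that rule 2.16% of all genes were lower. With any single pool left out, Dgat2, Lpin1 and Lpin2 were each lower and no other enzyme passed. All genes called lower then made up 12.0%, 14.2% and 18.2% without pools 1, 2 and 3.

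**Figure D3:**
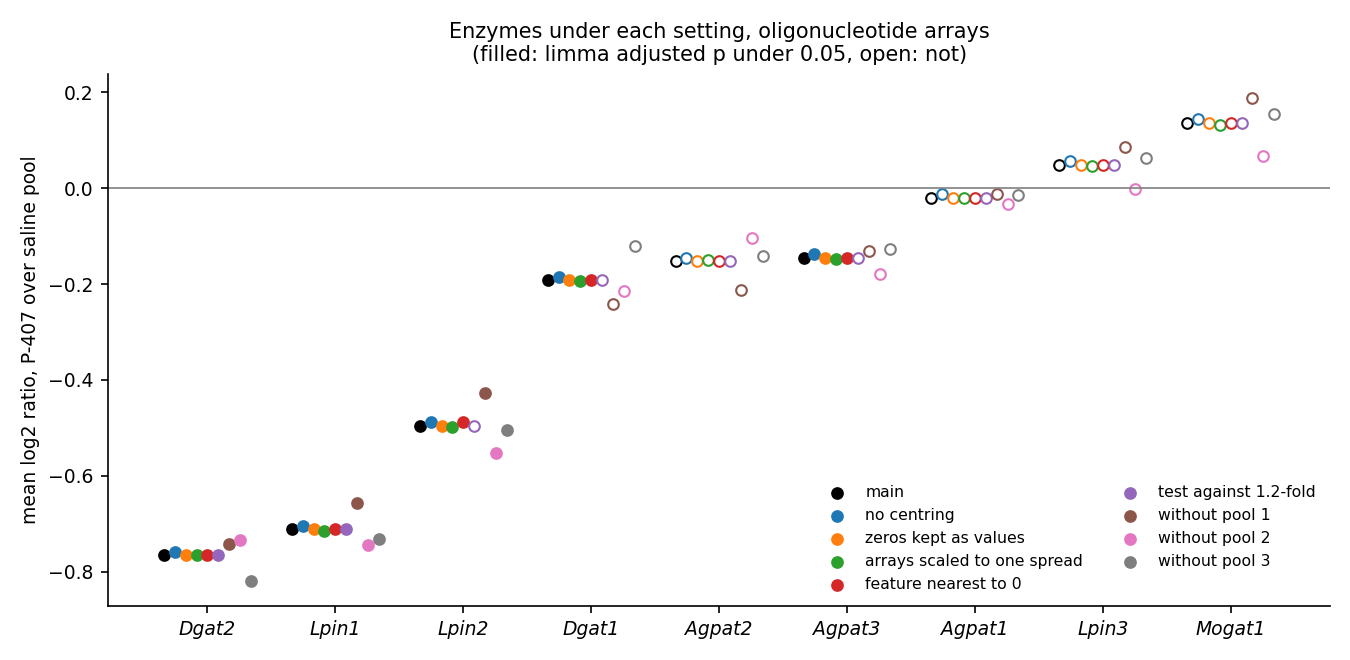
Mean log2 ratio of treated over control for each enzyme on the oligonucleotide arrays, under the main setting and 8 alternatives. Filled points passed the test and open points did not. Dgat2 and Lpin1 are filled under every setting drawn, Lpin2 under all but the test against 1.2-fold, and Dgat1 and Agpat3 turn open whenever a pool is left out.

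The cDNA array offered a reading of the same RNA for 3 of the enzymes. Agpat1 had log2 ratios of -1.34, -3.34 and -0.50 in pools 1, 2 and 3 on the cDNA arrays. All were negative, but they differed by far more than those of the oligonucleotide arrays, and the mean of -1.73 ± 1.46 did not pass the test (limma adjusted p = 0.172, 95% interval -3.53 to 0.08). Agpat3 had -0.01, 0.22 and 0.12 (0.11 ± 0.12, limma adjusted p = 0.567). Dgat1 had 0.02, -0.05 and -0.78, so that its mean of -0.27 ± 0.44 came mostly from pool 3 (limma adjusted p = 0.434), and the mean was -0.015 without that pool. Limma called 0% of the 5011 genes on the cDNA array, although 1518 had an unadjusted p under 0.05. Ratios of pools 1 and 2 correlated across genes at 0.70 there, and those of pool 3 at 0.34 with pool 1 and 0.29 with pool 2.

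Whether the array types gave different ratios was tested across all 6 arrays, at first without pairing the 2 arrays of a pool. The Agpat1 ratio on the oligonucleotide array exceeded that on the cDNA array by 1.71, which did not pass the test (limma adjusted p = 0.152, unadjusted p = 0.0553). That difference was 0.89 without pool 2 and 2.33 without pool 3, neither called, and the cDNA mean was -0.92 without pool 2. For Agpat3 the difference was -0.26 (limma adjusted p = 0.163) and for Dgat1 0.08 (limma adjusted p = 0.832). Of 4702 genes on all 6 arrays 11.4% differed between array types. With the pool as a block limma called 0 of them (1317 at an unadjusted p under 0.05). The enzymes then had limma adjusted p = 0.189 (Agpat1), 0.246 (Agpat3) and 0.778 (Dgat1). In the unpaired test limma also called 0 without pool 1 or pool 2 (751 and 914), and 1077 without pool 3. With the 2 arrays of each pool averaged, 5.1% of those genes were called, and 373 genes without pool 3, but 0 by limma without pool 1 or pool 2 (689 and 807 at an unadjusted p under 0.05). None of the 3 enzymes was among them (limma adjusted p = 0.130 for Agpat1, 0.880 for Agpat3 and 0.276 for Dgat1), with unadjusted p under 0.05 for Agpat1 alone (0.0446). Dgat2, Lpin1 and Lpin2 were not on the cDNA array, so their values rest on the oligonucleotide array alone.

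Supply of the substrates was examined next. Of 12 genes of fatty acid activation, fatty acid uptake and glycerol phosphate supply, 10 were measured on the oligonucleotide array, with 5 lower, 1 higher and a median of -0.14, beside 21.4% lower and 22% higher among all genes. Acsl3, an acyl-CoA synthetase of the endoplasmic reticulum and lipid droplets, had -0.53, -0.80 and -0.47 in pools 1, 2 and 3 and fell by 0.60 ± 0.17 (limma adjusted p = 0.0021). Aqp9, the glycerol channel of hepatocytes, fell by 0.32 ± 0.07, and Slc27a5, which activates fatty acids and bile acids in liver, by 0.39 ± 0.19. Slc27a4, a fatty acid transporter with acyl-CoA synthetase activity, was higher at 0.16 ± 0.10, and was not called when any pool was left out (0.11 without pool 3). Slc27a5 was also negative on the cDNA array (-0.76, -0.75 and -0.45, not called). With the 2 arrays of each pool averaged, Slc27a5 lay at -0.52 and was not called (limma adjusted p = 0.0634). Without pool 3 the list held 3 lower genes. Gk, which phosphorylates glycerol, and Acsl1 were not measured.

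Other isoforms of the same steps included genes called in either direction, in shares near those of all genes. Of 9 measured genes 3 were lower and 2 higher, with a median of -0.00661, beside 21.4% lower and 22% higher among all genes. Agpat4, an acyltransferase best known from mouse brain, had 0.60, 0.50 and 0.42 and rose by 0.51 ± 0.09 (limma adjusted p = 0.0013). Gpat2, described mainly in mouse testis, rose by 0.29 ± 0.04. Gpat4, the glycerol phosphate acyltransferase of the endoplasmic reticulum, was lower at -0.19 ± 0.06, but not when any pool was left out (limma adjusted p from 0.0545 to 0.0645). On the cDNA array Gpat4 had -1.83, -1.61 and -1.29, negative in every pool, with a mean of -1.58 ± 0.27 that was not called (limma adjusted p = 0.0984). With the 2 arrays of each pool averaged, Gpat4 was lower at -0.88 ± 0.11 (limma adjusted p = 0.0394), where 5.1% of genes were called and none without pool 1 or pool 2. The lipid phosphate phosphatases Plpp1 and Plpp2, which act on phosphatidate among other substrates, fell by 0.29 ± 0.09 and 0.36 ± 0.19. Without pool 1 the list held 1 lower gene, and neither Gpat4 nor Plpp2 was called.

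Of 7 measured genes that use the intermediates for phospholipids, 1 was lower, 1 higher and 5 not called (median 0.01), beside 43.4% called among all genes. Chpt1, which makes phosphatidylcholine from diacylglycerol, rose by 0.28 ± 0.03. Dgka, a diacylglycerol kinase, had -0.19, -0.23 and -0.54 in pools 1, 2 and 3 and fell by 0.32 ± 0.19, with pool 3 the lowest and a mean of -0.21 without it, still called. On the cDNA array Dgka was positive in every pool (1.27, 4.10 and 0.45, not called), opposite in sign to the oligonucleotide array. Without pool 3, 2 genes of this list were lower.

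Of 10 measured genes of triglyceride breakdown, 2 were lower and 1 higher (median -0.12), beside 21.4% lower and 22% higher among all genes. G0s2, an inhibitor of adipose triglyceride lipase, had 0.59, 0.37 and 0.18 and rose by 0.38 ± 0.21 (limma adjusted p = 0.0126), and was not called without pool 2 (limma adjusted p = 0.0578). On the cDNA array G0s2 had 0.46, 0.14 and -0.04 and was not called (limma adjusted p = 0.450). Ces1d, a triglyceride hydrolase of the endoplasmic reticulum, fell by 0.29 ± 0.06, with -0.12, -0.21 and -0.23 on the cDNA array (not called). With the 2 arrays of each pool averaged, neither G0s2 (0.28, limma adjusted p = 0.172) nor Ces1d (-0.24, limma adjusted p = 0.114) was called. Abhd5, the coactivator of adipose triglyceride lipase, was lower at -0.16 ± 0.07, and was not called without pool 1 or pool 2. Without pool 1 the list held 1 lower gene, and without pool 3 it held 4.

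For storage and export, 12 genes were measured, of which 3 were lower and 1 higher (median -0.00613), beside the same 21.4% and 22% of all genes. Mttp, which loads triglycerides onto apolipoprotein B, had -0.47, -0.54 and -0.48 and fell by 0.50 ± 0.03 (limma adjusted p = 7.89e-04). On the cDNA array Mttp had 0.27, 0.27 and 0.20, of the opposite sign in every pool, and was not called there (limma adjusted p = 0.232). Plin2, the main lipid droplet coat of hepatocytes, had 0.46, 0.42 and 0.19 and rose by 0.36 ± 0.15 (limma adjusted p = 0.0072), with 0.44, 0.47 and 0.21 on the cDNA array (not called). With the 2 arrays of each pool averaged, neither Mttp (-0.13, limma adjusted p = 0.263) nor Plin2 (0.37, limma adjusted p = 0.0843) was called. Fitm2, which helps droplets bud, and Plin5, a droplet coat of oxidative cells, were lower at -0.18 ± 0.04 and -0.20 ± 0.14. Neither Fitm2 nor Plin5 was called without pool 1 or pool 3, and Plin5 was not called without pool 2 either. The mean of Plin5 was -0.12 without pool 3. The list held 1 lower gene without pool 1 and 2 higher genes without pool 3 or without centring.

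Among regulators of this pathway, 16 of 17 were measured, with 6 lower and 2 higher (median -0.07). The 8 called genes are 50% of those measured, beside 43.4% of all genes. Thrsp, a nuclear protein that promotes lipogenesis, had -2.04, -2.20 and -1.77 in pools 1, 2 and 3. Ppara, the receptor that drives fatty acid oxidation, fell by 0.53 ± 0.15, and Mlx, the partner of the carbohydrate sensor Mlxipl, by 0.32 ± 0.03. Insig2, which retains the sterol sensor in the endoplasmic reticulum, had 0.97, 1.02 and 0.76 and rose by 0.92 ± 0.14 (limma adjusted p = 5.01e-04). Pparg, a receptor that raises lipid storage genes, rose by 0.30 ± 0.02. On the cDNA array Insig2 (0.76 ± 0.20), Pparg (1.22 ± 0.97) and Ppara (-0.84 ± 0.22) had the same sign and were not called, while Mlx was positive there (0.22 ± 0.67). Thrsp had -0.43, -1.30 and -0.11 on the cDNA array, all below 0 and all nearer to 0 than on the oligonucleotide array, and was not called (-0.61 ± 0.62, limma adjusted p = 0.224). With the 2 arrays of each pool averaged, Thrsp (-1.31, limma adjusted p = 0.0454), Insig2 (0.84, limma adjusted p = 0.0402) and Usf2 (-0.55, limma adjusted p = 0.0440) were the regulators called. Usf2, a basic helix-loop-helix factor, was named after its value was seen. Ppara (-0.68, limma adjusted p = 0.0501), Pparg (0.76, limma adjusted p = 0.0985) and Mlx (-0.05, limma adjusted p = 0.826) were not called there. In that average 5.1% of genes were called, and none without pool 1 or pool 2. Srebf1, the transcription factor for lipogenic genes, was named after its value was seen and lay at 0.02 ± 0.06 on the oligonucleotide array (limma adjusted p = 0.683).

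**Figure D4:**
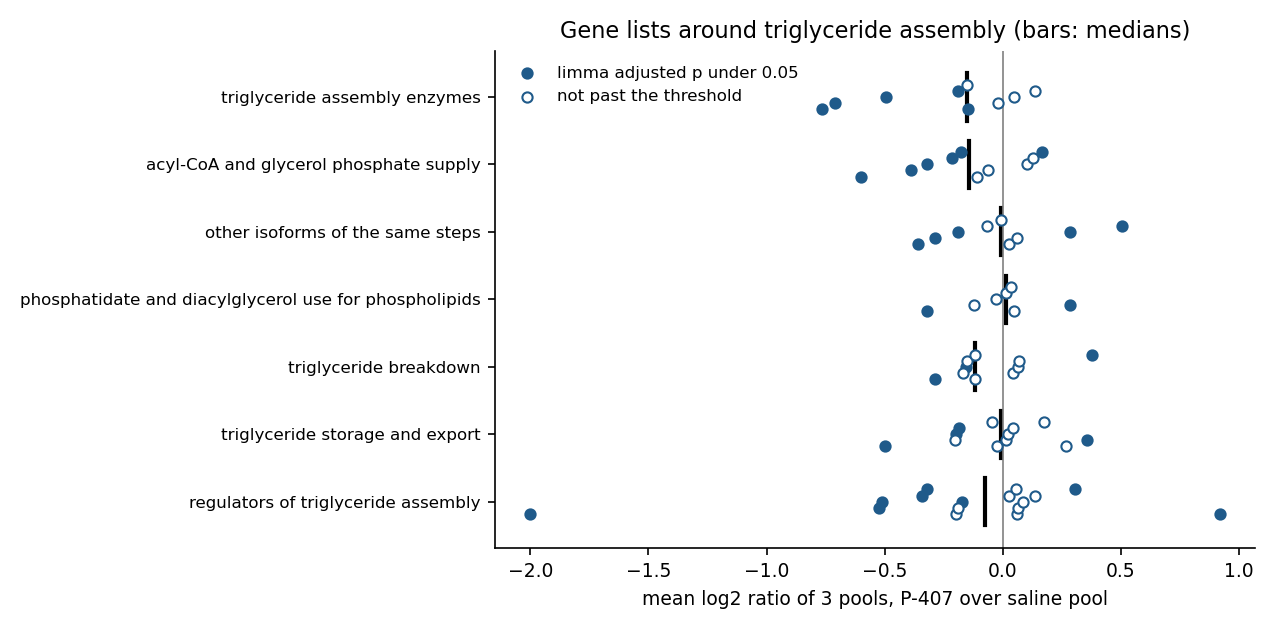
Mean log2 ratio of treated over control on the oligonucleotide arrays for the enzymes and for 6 lists around them. Points are genes, filled where limma's adjusted p was under 0.05, and bars are list medians. The medians of the enzymes (-0.15), of substrate supply (-0.14) and of triglyceride breakdown (-0.12) are the lowest of the 7 drawn, and every list spans both sides of 0.

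Markers of liver cell types differed from list to list on the oligonucleotide arrays, where 43.4% of all genes were called. Of 10 hepatocyte markers 6 were lower and 0 higher, with a median of -0.41 (pool medians -0.51, -0.44 and -0.43). Those lower were Apoa1 (-0.23), Cps1, Arg1, Ass1, Tdo2 and Tat (-1.23). Alb (-0.28), Cyp2e1 (-0.19), Hnf4a (-0.06) and Ttr (0.05) were not called. Of 10 measured macrophage markers 6 were higher and 4 lower, with a median of 0.64 (0.76, 0.49 and 0.67). Of 6 adipocyte markers 2 were lower (Lep and Plin1) and 1 higher (Fabp4, which macrophages also express), and Adipoq lay at -0.11 ± 0.06, not called. Of 6 stellate cell markers 5 were higher and 0 lower (median 0.41). Of 6 lymphocyte markers 3 were higher and 0 lower (median 0.25), and of 4 measured biliary markers 1 was higher and 0 lower (median 0.08). Of 5 endothelial markers 0 were called by limma (median 1.98e-04), with 1, Lyve1, at an unadjusted p under 0.05 (0.0425). On the cDNA array no marker was called. There 4 lymphocyte markers had a median of -0.53, opposite in sign, with Cd79b and Ms4a1, called higher above, negative in every pool. The cDNA medians were -0.34 for 7 hepatocyte, 0.50 for 7 macrophage and 0.39 for 5 stellate cell markers. Among the last, Des (-0.18) and Dcn (-0.04) were negative. The part of these shifts in the ratios of the enzymes was not tested. The files hold ratios only, so whether a marker is present at all, and the liver identity of the samples, could not be read from them.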

How the data were processed

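Per the labels' protocols, 10 ug of RNA was labelled directly for the cDNA array and 0.5 ug after linear amplification for the oligonucleotide array. The authors deposited 1 log ratio per feature and array, read here as log2. Sources used here do not give the log base, background correction, normalization or filters. The largest absolute value, 6.34, exceeds 4.82, the log10 of the largest 16-bit value, so log10 was set aside. A natural log was not excluded, and would make Dgat2 2.15-fold and Lpin1 2.04-fold lower. The direction follows the titles and dyes in the labels.

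Values of exactly 0 were taken as missing (1257 to 1277 per oligonucleotide array, 3421 to 5332 per cDNA array). The median of the remaining features, between -0.09 and 0.01, was subtracted from each array. Gene names came from the platform annotation, and features naming several genes (30 and 438) or none (3887 and 5634) were left out. Features of a gene with values on all 3 arrays were averaged. Gene IDs of 18445 oligonucleotide and 7332 cDNA features were found in a RefSeq table of GRCm38.p6.

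Each array type was fitted separately with limma 3.58.1 in R 4.3.3 (lmFit and eBayes). The script was tested on simulated data. The 2 arrays of a pool read the same split RNA per the series' design text, so pool numbers pair them. Deviations from the array type's mean correlated at 0.06, 0.07 and 0.07 within pools. Scanner intensities were not used here, so signal over background is unknown, and precision is limited by the number of arrays. The p-values measure the spread between pools. Sources used here do not say which mice went into which pool.

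The enzymes and lists were chosen with earlier results of these data known. All enzymes are named, and of each other list up to 3 higher and 3 lower genes with the smallest p past the threshold on the oligonucleotide array. Alternatives covered centring, zeros, spread, choice of feature, a test against 1.2-fold, the pool as a block and leaving out each pool. Python 3.11.15, pandas 2.3.3 and matplotlib 3.10.9 made sequence tables and plots.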

Additional observations from a re-analysis of the deposited data

How the results depend on the processing

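Of 120 repeats of an enzyme's value under an alternative, 108 kept the direction and the side of the threshold, 9 lost the call and 3 changed sign. Most repeats began from values that were not called, so only the 5 enzymes called on the oligonucleotide array could lose a call. Of 9 settings there, the main one included, Agpat3 and Dgat1 were each called in 5, Lpin2 in 8, and Dgat2 and Lpin1 in 9. The test against 1.2-fold called 872 genes on the oligonucleotide array, against 7318, and 2 enzymes lower, against 5, and left at most 1 gene in each direction in the 6 other lists. Leaving out a pool gave 4025 to 6244 calls on the oligonucleotide array, 4422 to 7120 calls of single features against 7980 (an alternative chosen after seeing the data), 3 enzymes lower with each pool left out, and 0 to 373 calls with both array types averaged, against 240. The difference between array types was called for 537 genes, for 0 by limma with the replicate block (1317 at an unadjusted p under 0.05), and for 0 to 1077 with a pool left out. No enzyme was called for that difference, with the block or without it. The sign changes were all in values that were not called. Lpin3 ranged from -0.0028 to 0.086 on the oligonucleotide array, Agpat3 from -0.062 to 0.020 on both array types, and the difference of Dgat1 between array types from -0.11 to 0.17, each with a pool left out. The cause of these changes was not tested, beyond the stricter limit or the smaller number of pools that the alternatives impose. Of 184 repeats for 23 other named genes, 33 lost the call and 0 changed sign. On the cDNA array limma called 0 genes under every alternative run, with 506 to 1888 at an unadjusted p under 0.05. Without scanner intensities, signal over background does not enter any limit given here.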
